A study of Mus musculus with 12 samples.

Results

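The 9 microglial identity genes described here are Cx3cr1, P2ry12, Tmem119, Csf1r, Aif1, C1qa, C1qb, C1qc and Trem2, taken by name from a table of 33250 gene symbols. All 9 passed the filter on low counts, among 19325 genes tested. The table held estimated counts from polyA RNA of bulk hippocampus of 12 male mice, 6 with a conditional knockout (cKO) of the miR379-410 microRNA cluster and 6 wild type (WT). In cKO animals Cre recombinase acts in Emx1-positive cells, which in the hippocampus are mainly glutamatergic neurons, with some glia of the same progenitors. The labels do not say whether WT animals carry Cre or the floxed allele, nor how old the animals were. Library totals lay between 42360624 and 51095816 counts. The question put to these genes was whether deleting the cluster in that lineage went with a change in the microglial RNA of the same tissue.

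Microglia are the resident macrophages of the brain parenchyma. They arise from yolk sac progenitors, a lineage separate from the Emx1-positive neurons that carry the deletion. They survey the tissue through receptors for neuronal and purine signals, depend on signalling through Csf1r for survival, and in the brain are a main source of the complement protein C1q, which tags synapses and debris for removal. The 9 genes are widely used to recognise these cells, although Csf1r, Aif1, Cx3cr1, Trem2 and the C1q genes are also expressed by macrophages at the borders of the brain. In bulk tissue, fewer cells of a type and less RNA per cell cannot be told apart.

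The 9 levels did not differ detectably between the genotypes. None of the 9 passed the threshold in either direction (edgeR quasi-likelihood test, adjusted p under 0.05), where 0.0103% of all genes tested passed, and none of the 9 passed with DESeq2 or limma-voom. None had an unadjusted p under 0.05, against 9.54% of all genes tested. The cKO and WT animals overlapped in all 9, and 0.404% of all genes tested had genotypes that did not overlap. Estimates were above 0 for 4 members and below 0 for 5, against 53.4% above 0 for all genes tested. The median log2 fold change over the 9, cKO over WT, was -0.02, beside 0.01 over all genes tested.

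Libraries that stand apart bear on these values. B830012L14Rik, a lincRNA gene on chromosome 12 (GRCm38, positions 109695586 to 109702587, plus strand) next to the start of the deleted cluster, stood at 0.788 CPM (counts scaled to a common library total) in cKO 1 and at 17.4 to 25.8 CPM in the other 5 cKO animals, against 0.310 to 0.865 CPM in WT animals. The library labelled cKO 1, named below by that label, lay among the WT animals at a gene that separated all other cKO animals from WT and had a log2 fold change of 4.78 ± 0.60 (SE, adjusted p = 0.0343, edgeR). Without it the median of the 9 was -0.05, with Tmem119 at -0.05, Csf1r at -0.05 and Trem2 at -0.06, against -0.02, -0.02 and -0.03 with all 12 animals. The summed level of 7 choroid plexus genes was lowest in cKO 4, WT 2 and WT 3, and ranged from 55.6 to 5531 CPM in cKO and from 86.3 to 8258 CPM in WT. The part of either feature in the results below was not tested, and values without these libraries are given for some of the results that they move, not for all.

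The marker check found all 9 members present, but levels did not separate them from border macrophage genes. All 9 members were counted in every animal, with the lowest single count at 100, for Aif1. Border macrophage genes covered a wide range of levels. Stab1, a scavenger receptor listed for these cells, averaged 22.4 ± 2.18 CPM in cKO and 19.8 ± 2.54 CPM in WT (SD, n = 6 each, as below). Mrc1, their mannose receptor, averaged 3.94 ± 0.947 CPM in cKO and 3.25 ± 0.564 CPM in WT. The member Aif1 averaged less, 2.88 ± 0.273 CPM in cKO and 2.71 ± 0.273 CPM in WT. Pf4, a chemokine gene of border macrophages, averaged 0.482 ± 0.259 CPM in cKO and 0.465 ± 0.121 CPM in WT. Ccr2, the chemokine receptor of blood monocytes, averaged 0.464 ± 0.126 CPM in cKO and 0.372 ± 0.147 CPM in WT. Cd3e, a T cell receptor component, was below the filter in both genotypes.

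Among the 9 members, the only pairs whose correlation passed adjustment lay within the 3 C1q chains, so the start regions of the neighbouring genes C1qb and C1qc, whose levels tracked each other over the 12 animals, are printed. On chromosome 4 (GRCm38, minus strand), C1qb lies at 136880129 to 136886187, C1qc at 136889804 to 136893065 and C1qa at 136895917 to 136898803. The 3 genes span 18675 bases, with 3616 bases between C1qb and C1qc and 2851 bases between C1qc and C1qa. Both windows run from 250 bases before to 50 after the RefSeq start (GRCm38.p6), at chr4:136886151-136886450 for C1qb and chr4:136892865-136893164 for C1qc, 5′ to 3′ on the minus strand. Capitals mark GAGGAA or its reverse complement TTCCTC, a core of the sites bound by PU.1, the ETS factor of myeloid cells.
C1qb: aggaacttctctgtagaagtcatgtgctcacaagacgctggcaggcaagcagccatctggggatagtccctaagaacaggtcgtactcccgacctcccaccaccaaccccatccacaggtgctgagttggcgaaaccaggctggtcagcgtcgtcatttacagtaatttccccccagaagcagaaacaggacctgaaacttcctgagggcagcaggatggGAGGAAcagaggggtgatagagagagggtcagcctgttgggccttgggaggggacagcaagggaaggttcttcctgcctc
C1qc: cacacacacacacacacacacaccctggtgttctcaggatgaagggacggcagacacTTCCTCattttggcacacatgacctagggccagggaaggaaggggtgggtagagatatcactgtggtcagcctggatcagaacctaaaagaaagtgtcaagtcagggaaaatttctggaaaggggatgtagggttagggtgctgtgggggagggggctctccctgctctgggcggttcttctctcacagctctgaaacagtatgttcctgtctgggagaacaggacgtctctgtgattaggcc

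The match in C1qb begins 30 bases before the start, and the match in C1qc, on the opposite strand, begins 193 bases before it. RefSeq windows were at hand for 6 of the 9 members. Trem2 and Aif1 also held a match, and the windows of Cx3cr1 and P2ry12 held none. The same letters, on either strand, stood in 28.3% of 32851 windows of 300 bases, so a match is common. The RUNX core TGTGGT or its reverse complement ACCACA stood in the windows of C1qc and Cx3cr1, and in 16.8% of all windows. These matches describe letters and show no binding.

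Deletion of a microRNA cluster removes repressors, whose pairing to a 3′ UTR is set mainly by bases 2 to 8, the seed. From Mir379 to Mir410 on chromosome 12 (GRCm38.p6, 109709060 to 109743795) the RefSeq table gave 69 mature miRNAs with 63 distinct seeds. A 7-base match to at least 1 seed was found in the longest annotated 3′ UTR of 8 of the 9 members, and in 85.7% of 20659 genes with such a UTR. The mature sequences that match the 3 C1q genes and Trem2 are printed 5′ to 3′ with the seed in capitals, followed by miR-376b-5p and miR-376c-5p, which share a seed and match P2ry12 and Cx3cr1.
miR-494-3p: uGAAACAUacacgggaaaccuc
miR-300-5p: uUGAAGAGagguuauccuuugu
miR-381-5p: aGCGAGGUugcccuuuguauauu
miR-369-3p: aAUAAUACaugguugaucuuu
miR-329-3p: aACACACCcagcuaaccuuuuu
miR-376b-5p: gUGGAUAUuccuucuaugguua
miR-376c-5p: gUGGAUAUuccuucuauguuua

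The matching stretches of the 3′ UTRs (GENCODE annotation of GRCm38) are shown with the matched bases in capitals, to let the pairing be read against the seeds.
C1qa, miR-494-3p: actgaggactgATGTTTCtgcacactgcc
C1qb, miR-300-5p: gggtcaataaaCTCTTCAaggccaaaa
C1qc, miR-381-5p: cccagccacccACCTCGCtccctctgctt
C1qc, miR-369-3p: accacctaatgGTATTATtcctgtggcca
Trem2, miR-329-3p: gcaggaatactGGTGTGTacatctgtgtt
P2ry12, miR-376b-5p and miR-376c-5p: ttcagtctttaATATCCAgactgctccaa

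Counted over distinct seeds, Cx3cr1 had 11 matches in 2587 bases, Csf1r 6, P2ry12 and Tmem119 4 each, C1qc 2, and C1qa, C1qb and Trem2 1 each. Aif1 had none in 118 bases. Per 1000 bases C1qc had 8.37 matches, more than 93.1% of genes, and the median of all genes was 3.89. The value for C1qc rests on 2 matches in only 239 bases, where a single match moves it far. The other 7 members with a match had 3.43 to 6.25 per 1000 bases. Whether the miRNAs reach microglia, which are not in the deleted lineage, was not measured, and mature miRNAs are not read from polyA libraries.

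Among receptors for signals from neurons and other cells, Cx3cr1, the receptor of the neuronal chemokine fractalkine, came nearest to the unadjusted threshold. It lay at 34.4, 36.6 and 38.1 CPM (lowest, median, highest) in cKO animals and at 35.9, 39.2 and 40.6 CPM in WT animals. The ranges overlapped, and the 3 highest values were those of WT 3, WT 4 and WT 5. Means were 36.5 ± 1.49 CPM in cKO and 38.6 ± 1.88 CPM in WT, a log2 fold change of -0.08 ± 0.04 (SE; unadjusted p = 0.0503, adjusted p = 0.526, edgeR). The 95% interval of the difference reached 10.98% lower in cKO. Over 22 alternatives the log2 fold change of Cx3cr1 stayed between -0.11 and -0.07, and its adjusted p between 0.200 and 0.804. Cx3cr1 shares 78 of 4505 annotated exon bases with Gm33858 on the opposite strand. Gm33858 averaged 0.182 ± 0.079 CPM in cKO and 0.294 ± 0.063 CPM in WT (log2 fold change -0.68 ± 0.28, SE, adjusted p = 0.463, edgeR).

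P2ry12 encodes the ADP receptor that directs microglial processes to sites of injury. In cKO animals it was at 23.6, 25.0 and 29.5 CPM (lowest, median, highest) and in WT animals at 22.3, 27.8 and 28.8 CPM. WT 6 stood below the other WT animals, which lay at 27.4 CPM or above, and cKO 1 was the highest of the cKO animals. The log2 fold change was -0.08 ± 0.07 (SE, adjusted p = 0.779, edgeR), and -0.13 without cKO 1 (adjusted p = 0.453). P2ry12 lies within Med12l, a gene on the opposite strand that shares 9 of the 2546 annotated exon bases of P2ry12. Med12l averaged 52.2 ± 4.71 CPM in cKO and 62.1 ± 4.80 CPM in WT (log2 fold change -0.25 ± 0.06, SE, adjusted p = 0.339). No source used here gives the strand setting of the quantification, so reads of the overlapping genes may have been mixed.

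Csf1r, the receptor for Csf1 and Il34 on which microglial survival depends, had the highest counts of the 9. Its levels were 82.5, 88.6 and 92.3 CPM in cKO animals and 87.4, 89.1 and 91.1 CPM in WT animals (lowest, median, highest). The WT range lay inside the cKO range, with cKO 5 and cKO 6 lower and cKO 1 higher than every WT animal. The log2 fold change was -0.02 ± 0.03 (SE, adjusted p = 0.858), with a 95% interval from 6.16% lower to 2.95% higher in cKO. Csf1r shares 873 of 5774 annotated exon bases with Hmgxb3 on the opposite strand, whose own log2 fold change was 0.03 ± 0.03 (SE, adjusted p = 0.820).

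Trem2 is a lipid-sensing receptor that signals through Tyrobp and is needed for the microglial response to damage. It lay at 8.70, 9.15 and 9.93 CPM in cKO and at 8.50, 9.64 and 10.1 CPM in WT (lowest, median, highest), so the cKO range lay inside the WT range. The log2 fold change was -0.03 ± 0.06 (SE, adjusted p = 0.908).

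Tmem119, a membrane protein that separates parenchymal microglia from most other macrophages, varied least. It was at 20.2, 20.9 and 22.4 CPM in cKO and at 20.8, 21.4 and 22.0 CPM in WT (lowest, median, highest), so the WT range lay wholly inside the cKO range. Its log2 fold change was -0.02 ± 0.04 (SE, adjusted p = 0.914), and the interval ran from 6.51% lower to 4.15% higher in cKO. Aif1, which encodes the calcium-binding protein Iba1 of the microglial cytoskeleton, was the least abundant member, at 2.49, 2.88 and 3.17 CPM in cKO and 2.39, 2.74 and 3.16 CPM in WT. The genotypes covered almost the same span. With counts of only 100 to 164, the log2 fold change of Aif1 was 0.08 ± 0.09 (SE, adjusted p = 0.826) and its interval reached 21.4% higher in cKO.

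C1qa, C1qb and C1qc encode the A, B and C chains that assemble in equal numbers into C1q, the recognition protein of the classical complement pathway. C1qa was at 36.5, 45.3, 40.3, 44.2, 34.7 and 37.2 CPM in cKO 1 to cKO 6, against 40.1, 38.8, 36.4, 37.4, 37.5 and 45.0 CPM in WT 1 to WT 6. C1qb was at 35.5, 41.6, 34.1, 40.5, 33.3 and 34.7 CPM in cKO 1 to cKO 6, against 34.1, 35.4, 32.3, 33.5, 31.0 and 40.2 CPM in WT 1 to WT 6. In both genes cKO 2, cKO 4 and WT 6 stood above the other 9 animals, whichever their genotype. C1qc was at 35.0, 37.9, 33.3, 36.4, 29.9 and 32.8 CPM in cKO 1 to cKO 6, against 34.5, 35.4, 31.7, 33.2, 28.0 and 34.7 CPM in WT 1 to WT 6. For C1qc, cKO 2 and cKO 4 were again highest, WT 6 was not apart, and WT 5 and cKO 5 were lowest.

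The genotype difference was small beside that spread in all 3 chains. The log2 fold change was 0.02 ± 0.07 for C1qa (SE, adjusted p = 0.958), 0.09 ± 0.07 for C1qb (adjusted p = 0.742) and 0.06 ± 0.06 for C1qc (adjusted p = 0.845). Intervals reached 12.6% higher for C1qa, 18.1% higher for C1qb and 14.5% higher for C1qc in cKO. The sign for C1qa turned to -0.03 without cKO 2 and to -0.04 without cKO 4, WT 2 and WT 3, and C1qa was the only member whose sign turned under any of the 22 alternatives.

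**Figure D1:**
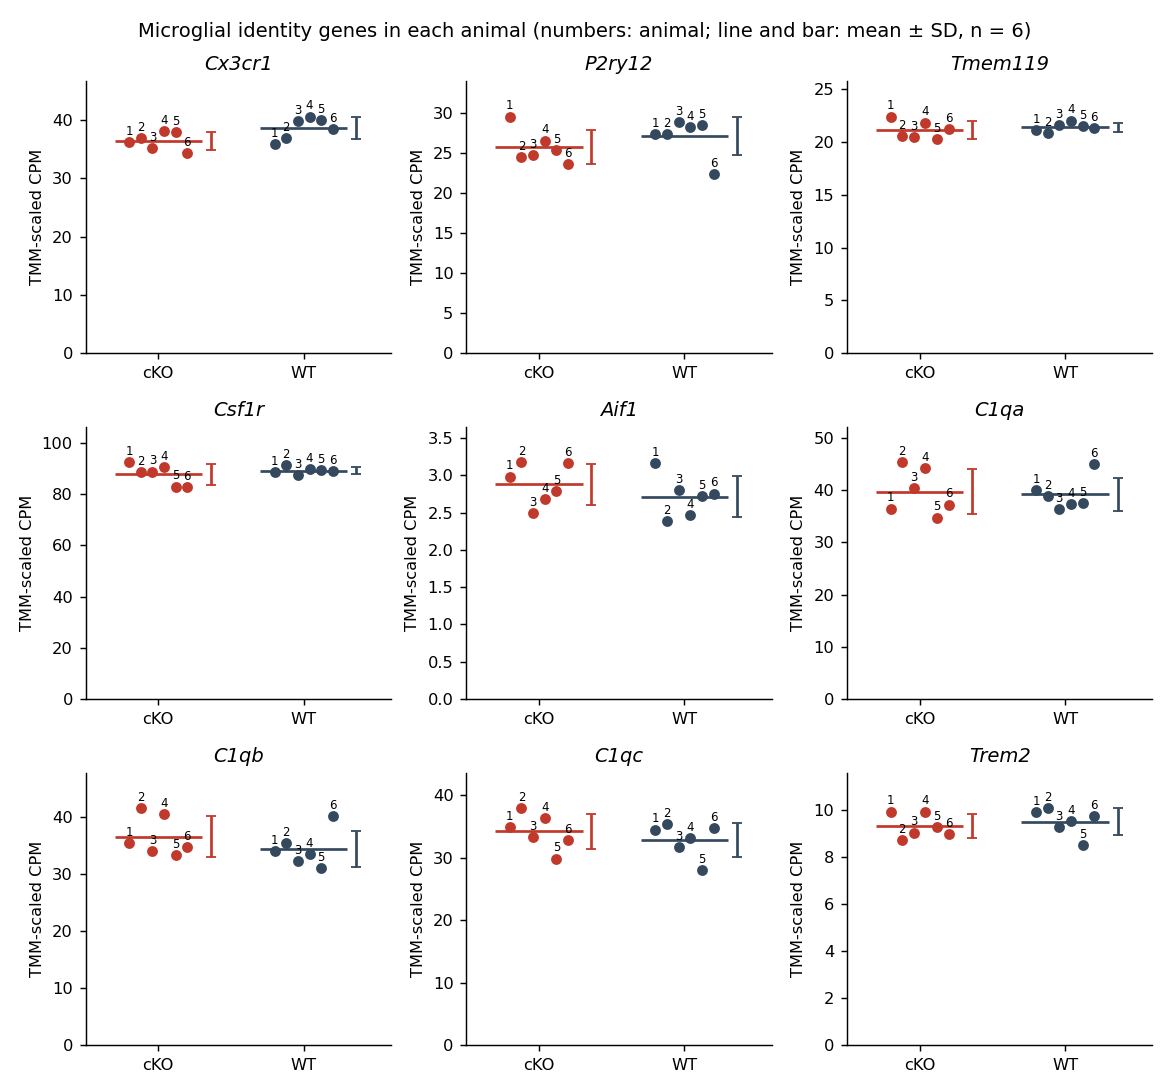
Level of each of the 9 genes in each animal, in TMM-scaled CPM on axes that start at 0, with cKO animals left and WT animals right; numbers name the animal, and the line and bar give mean ± SD (n = 6). The genotypes overlap in every panel, and cKO 2, cKO 4 and WT 6 stand high together in C1qa and C1qb.

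The left panel of the plot of fold changes sets the 9 intervals on a common scale. All 9 held 0, and the widest was that of Aif1, the member with the fewest counts. The right panel places the members among the other gene lists, where larger estimates lay in smooth muscle and border macrophage genes.

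**Figure D2:**
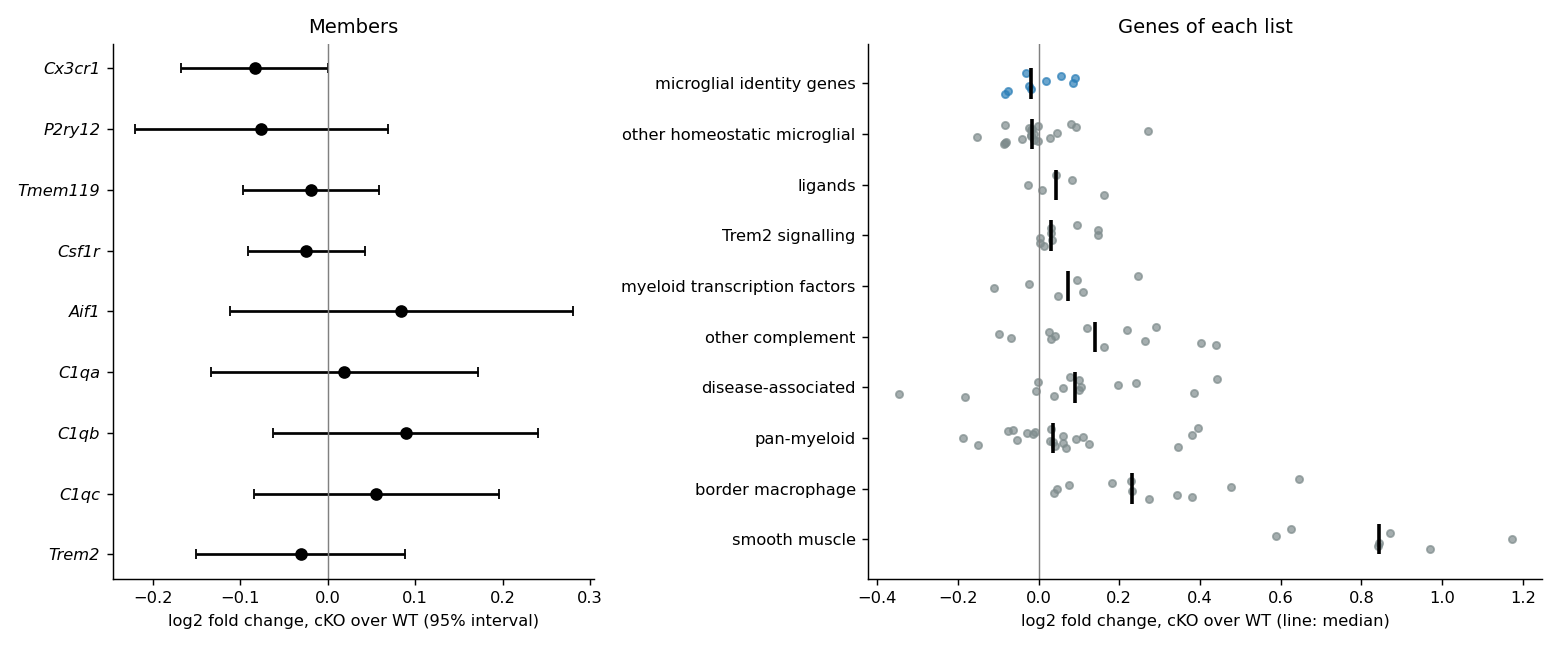
Log2 fold change, cKO over WT, of each member with its 95% interval (left), and of every tested gene of 10 lists with the list median as a black line (right). The 9 members lie between -0.08 and 0.09, with a median of -0.02, and the 7 smooth muscle genes have a median of 0.84.

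Per 1000 bases of the longest protein-coding transcript, the C1q chains were the most abundant of the 9. In cKO, C1qa stood at 38.2 ± 4.16 CPM per kb, C1qb at 33.7 ± 3.25 and C1qc at 28.4 ± 2.38, against 37.7 ± 3.01, 31.6 ± 2.94 and 27.4 ± 2.27 CPM per kb in WT (SD, n = 6 each). The ranges of C1qa and C1qb overlapped in both genotypes, as did those of C1qb and C1qc. Csf1r followed at 18.6 ± 0.858 CPM per kb in cKO and 18.9 ± 0.268 in WT, apart from its neighbours on both sides. P2ry12 stood at 10.96 ± 0.902 CPM per kb in cKO and 11.6 ± 1.03 in WT. Close together below it, Tmem119 stood at 9.42 ± 0.385 CPM per kb in cKO and 9.55 ± 0.186 in WT, Trem2 at 8.55 ± 0.475 in cKO and 8.74 ± 0.520 in WT, and Cx3cr1 at 8.11 ± 0.332 in cKO and 8.60 ± 0.418 in WT. Ranges of P2ry12 and Tmem119 overlapped in WT and not in cKO, those of Tmem119 and Trem2 in cKO and not in WT, and those of Trem2 and Cx3cr1 in both. Aif1 was lowest, at 3.29 ± 0.312 CPM per kb in cKO and 3.10 ± 0.312 in WT. The isoforms behind each gene's count are not known, so these lengths are approximate.

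The amount by which animals of 1 genotype differed from each other set the members apart. The coefficient of variation within genotype, pooled over both genotypes, was 3.20% for Tmem119, 3.41% for Csf1r, 4.49% for Cx3cr1 and 5.76% for Trem2. It was 8.33% to 9.77% for C1qc, P2ry12, C1qb, C1qa and Aif1. Counting noise alone would give 3.14% for Tmem119 and 8.66% for Aif1, so pooled values of these genes were little above counting error. Taken apart, Tmem119 varied by 4.08% in cKO and 1.95% in WT. Csf1r varied by 4.60% in cKO and 1.41% in WT, with counting noise at 1.54%. Trem2 was also near its counting error, with a ratio of observed to counting variation of 1.22. For the C1q chains the ratio was 4.14 (C1qa), 3.90 (C1qb) and 3.33 (C1qc), and for P2ry12 3.03. The median ratio over all genes tested was 1.93, and 83.9% of them had a ratio below that of C1qa, 6.78% one below that of Tmem119. From the lowest to the highest animal the members spanned 1.11-fold (Tmem119) to 1.35-fold (C1qc).

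Whether the 9 genes rise and fall together from animal to animal was read from the 36 correlations between members over the 12 animals (log2 CPM). Only 23 of the 36 pairs, 63.9%, had a positive r, where 49.6% of all pairs of 15545 genes did, and the median r was 0.18. Members share a library and its depth, and 12 animals leave wide error on each r. After Benjamini-Hochberg adjustment over the 36 pairs, 2 passed 0.05, both within C1q, at r of 0.83 or more, a size reached in either direction by 0.776% of all gene pairs. With 1 animal left out, 1 pair passed without cKO 2, 1 without WT 6, 0 without cKO 4, and 2 or 3 without any other animal. Without cKO 4, WT 2 and WT 3, 0 passed, while r was 0.81 for C1qa with C1qb and 0.82 for C1qb with C1qc. With fewer animals the same r gives a larger p.

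C1qb and C1qc gave r = 0.83 (permutation p = 0.00115, adjusted p = 0.0209) and Spearman's rho = 0.92 (permutation p = 9.0e-05, adjusted p = 0.00324). Within cKO animals r was 0.90 (exact permutation p = 0.00417) and within WT animals 0.73 (exact permutation p = 0.115), n = 6 each. Leaving out the 2 animals farthest from the median of C1qb, cKO 2 and cKO 4, r was 0.72.

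C1qa and C1qb gave r = 0.86 (permutation p = 0.00116, adjusted p = 0.0209) and rho = 0.66 (permutation p = 0.0216, adjusted p = 0.259). Within cKO r was 0.89 (exact permutation p = 0.0278) and within WT 0.91 (exact permutation p = 0.0250), n = 6 each. Without the 2 animals farthest from the median of C1qa, cKO 2 and WT 6, r was 0.70. Among the 9 animals other than cKO 2, cKO 4 and WT 6, a set chosen after their values were seen, r was 0.23 (exact permutation p = 0.544). Leaving out the highest animals of both genes also narrows the range that r is taken over. In the same 9 animals C1qb and C1qc kept r = 0.88 (exact permutation p = 0.00239). C1qa and C1qc gave r = 0.69 over 12 animals (permutation p = 0.0121, adjusted p = 0.146), rho = 0.68 (permutation p = 0.0177, adjusted p = 0.259), 0.85 in cKO and 0.51 in WT, and 0.61 without cKO 2 and WT 6.

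Ratios of counts between the chains were as follows. C1qb was 0.926 times C1qa (median, range 0.846 to 0.971) in cKO and 0.891 times (0.828 to 0.913) in WT. C1qc was 0.928 times C1qb (0.896 to 0.986) in cKO and 0.986 times (0.863 to 1.01) in WT. C1qc was 0.848 times C1qa (0.823 to 0.958) in cKO and 0.867 times (0.747 to 0.911) in WT. The ratio of C1qa to P2ry12, a pair with negative r, ran from 1.24 to 1.85 in cKO and from 1.26 to 2.02 in WT, a wider span than between the chains.

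**Figure D3:**
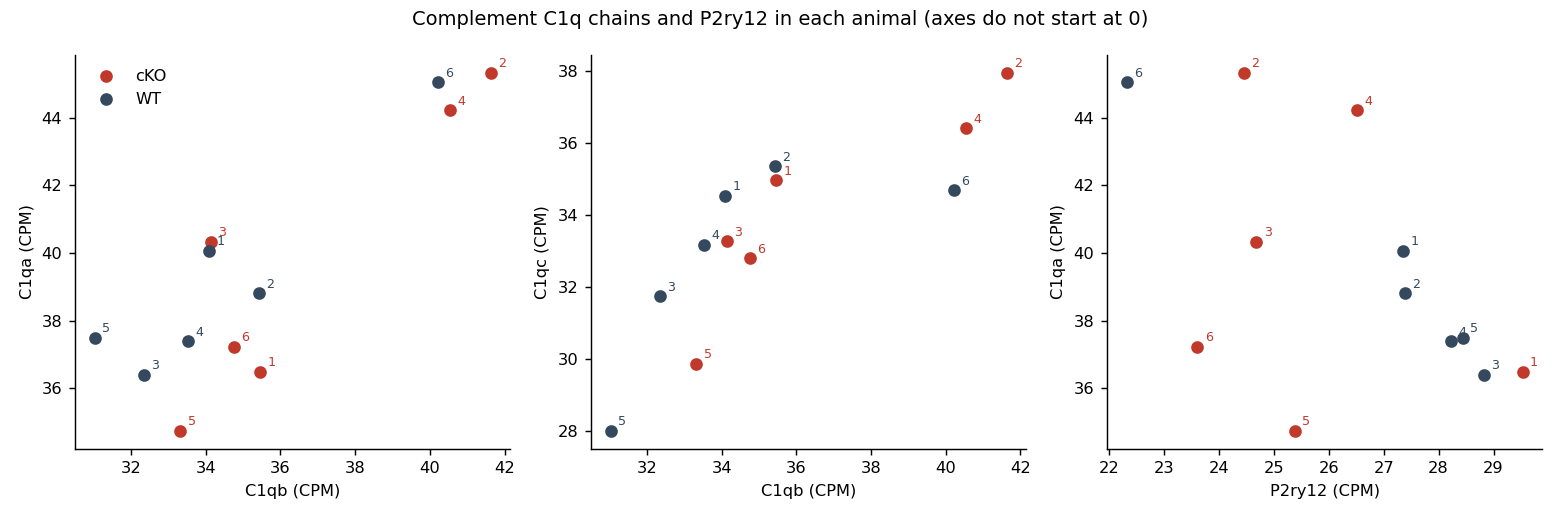
Level (CPM, axes not starting at 0) of C1qa against C1qb, C1qc against C1qb and C1qa against P2ry12, with 1 point per animal, cKO in red and WT in dark blue, numbered by animal. In the first panel cKO 2, cKO 4 and WT 6 lie apart from the other 9 animals; in the second the animals spread along a line (r = 0.83); in the third WT 6 combines the lowest P2ry12, 22.3 CPM, with high C1qa.

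Cx3cr1, P2ry12, Tmem119 and Csf1r encode membrane proteins, as does Trem2. All 6 pairs among Cx3cr1, P2ry12, Tmem119 and Csf1r were positive over 12 animals, with r from 0.24 to 0.55 and a median of 0.44, and none passed adjustment. They stayed positive as deviations from the genotype mean, with a median of 0.36. Within genotypes this was less regular, with 5 of the 6 positive in cKO and 4 of the 6 in WT.

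Between the C1q chains and these 4 genes, 8 of the 12 pairs were negative and the median r was -0.10. As deviations from the genotype mean, 6 were positive and 6 negative, with a median of -0.03. P2ry12 gave -0.53 with C1qa (permutation p = 0.0777, adjusted p = 0.455) and -0.54 with C1qb (permutation p = 0.0710, adjusted p = 0.455). In WT animals alone P2ry12 and C1qa gave r = -0.97 (exact permutation p = 0.00278, adjusted p = 0.05 over the 36 pairs, which did not fall under the threshold), and in cKO animals r was -0.20 (exact permutation p = 0.746). WT 6 held both the lowest P2ry12 and the highest C1qa of its genotype. Among the 9 animals other than cKO 2, cKO 4 and WT 6, a set chosen after the values were seen, r was -0.14 (exact permutation p = 0.720). Leaving out the animals highest in C1qa narrows its range, so this value cannot tell whether the 2 genes are related in the other animals. Of the 12 pairs, 10 were positive in cKO and 3 in WT, and the difference between the genotypes was not tested.

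Trem2 leaned to C1qc, with r = 0.48 over 12 animals (permutation p = 0.114, adjusted p = 0.455). In WT animals the pair reached r = 0.99 (exact permutation p = 0.00278, adjusted p = 0.05 over the 36 pairs), while r was 0.06 in cKO (exact permutation p = 0.907). Without WT 5 and cKO 5, the animals lowest in C1qc, r over the other 10 was 0.12. Leaving out the animals lowest in C1qc narrows its range, so this value cannot tell whether Trem2 and C1qc are related in the other animals. Trem2 and P2ry12 gave r = 0.86 in cKO animals (exact permutation p = 0.00972, adjusted p = 0.175), against -0.37 in WT. Neither pair of Trem2 passed adjustment within a genotype, and the difference between the genotypes was not tested. Aif1 had 4 positive and 4 negative correlations with the other members, between -0.40 and 0.21.

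**Figure D4:**
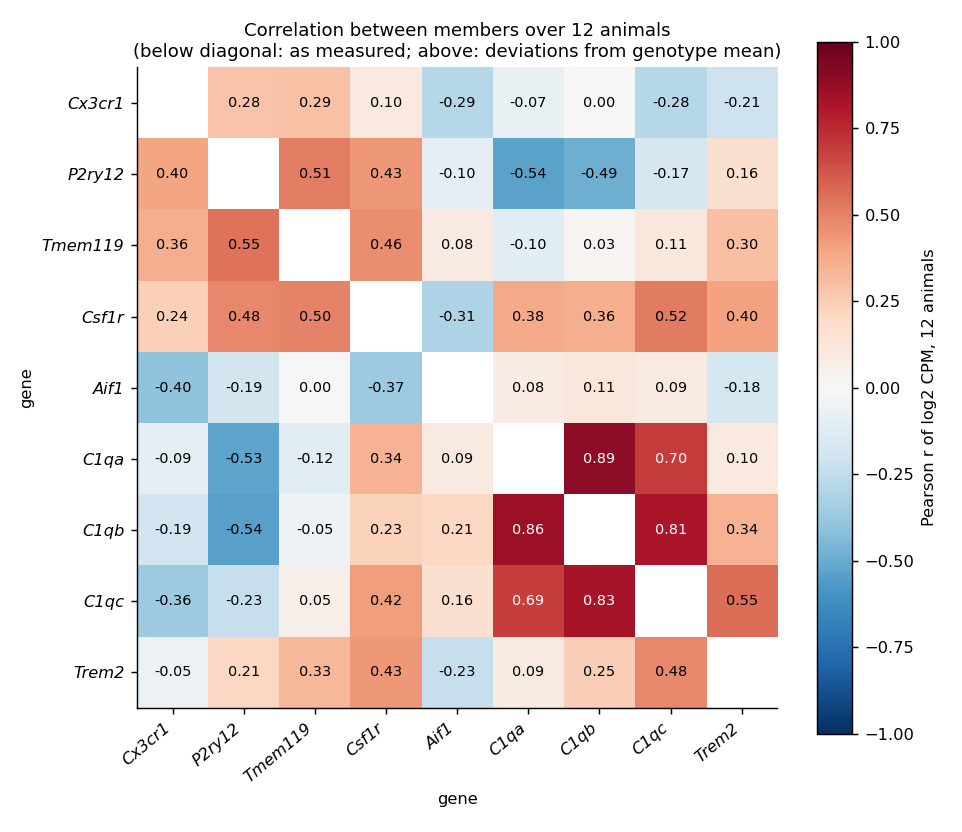
Pearson r of log2 CPM between each pair of members over 12 animals, as measured below the diagonal and as deviations from the genotype mean above it, on a colour scale from -1 (blue) to 1 (red). The 3 C1q pairs form the red block (0.69 to 0.86 below the diagonal), and P2ry12 is blue against C1qa and C1qb.

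The summed level of the 9 genes had nearly the same median in both genotypes. It ran from 276 to 311 CPM in cKO, with a median of 294, and from 287 to 303 CPM in WT, with a median of 296. The cKO animals spread more widely on both sides of the WT animals, with cKO 5 and cKO 6 below and cKO 2 and cKO 4 above all 6 of them.

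The 12 other genes whose profile over animals was most like the mean standardised profile of the members were ranked over 15545 genes of at least 1 CPM, by the lower of the r over 12 animals and the r of deviations from genotype means. They were Pglyrp1, a peptidoglycan-binding protein (0.82), 4833445I07Rik, Trat1, a T cell adaptor (0.81), Mfsd11, Mcm8, Magohb, Grn, which encodes the lysosomal protein progranulin (0.78), Trappc9, Por, Rasip1, Bmp2 and Gm42688 (0.75). None of the 12 stood in any list used here, and 4 of the closest 100 genes other than the members did, among them Siglech, a sialic acid receptor of microglia (0.74). Members enter the profile that they are ranked by, which raises their ranks. Csf1r ranked 11, C1qc 27, Tmem119 128, C1qb 142, Trem2 233 and C1qa 298. P2ry12 ranked 2689, Cx3cr1 3584 and Aif1 5704.

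Other genes of homeostatic microglia likewise gave no call. Of 20 tested, 5 had a log2 fold change above 0 and 15 below, with a median of -0.02, none passed the threshold, and none had an unadjusted p under 0.05. Slc2a5, a fructose transporter, averaged 4.24 ± 0.284 CPM in cKO and 4.71 ± 0.447 CPM in WT (log2 fold change -0.15 ± 0.08, SE, adjusted p = 0.560). The ADP receptor P2ry13 was at -0.09 ± 0.09, Siglech at -0.08 ± 0.08 and the integrin chain Itgb5 at 0.08 ± 0.07 on the same scale, with adjusted p of 0.762 to 0.806. With each animal left out in turn, 5 to 9 of the 20 were above 0, and 8 without cKO 4, WT 2 and WT 3. P2ry13 was at -0.14 without cKO 1 and at -0.14 without cKO 4, WT 2 and WT 3. It was at -0.21 without cKO 1, cKO 4, WT 2 and WT 3. Summed, the 20 genes lay at 300 to 325 CPM in cKO and 302 to 320 CPM in WT.

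The ligands of the receptors above come largely from neurons and other cells, some of which carry the deletion. Of 5 tested, 4 had estimates above 0, with a median of 0.04, and none passed. With each animal left out, 2 to 4 were above 0, and the median was -0.01 without cKO 4. Cx3cl1, fractalkine, averaged 610 ± 33.2 CPM in cKO and 621 ± 15.4 CPM in WT (log2 fold change -0.03 ± 0.04, SE, adjusted p = 0.886). Csf1 averaged 30.7 ± 5.23 CPM in cKO and 27.4 ± 2.07 CPM in WT (0.16 ± 0.10, adjusted p = 0.635), and the other Csf1r ligand Il34 was at 0.01 ± 0.06 (adjusted p = 0.977). Tgfb1, which maintains the microglial programme, was at 0.08 ± 0.08, and Cd200, a neuronal restraint on microglia, at 0.04 ± 0.08.

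Downstream of Trem2, all 9 genes tested had estimates above 0, by a median of 0.03, and none passed. Vav1, a guanine nucleotide exchange factor, averaged 3.24 ± 0.147 CPM in cKO and 2.93 ± 0.190 CPM in WT (log2 fold change 0.15 ± 0.07, SE, adjusted p = 0.528). The kinase Lyn was at 0.15 ± 0.07 (adjusted p = 0.536), the adaptor Fcer1g at 0.10 ± 0.09 and the phospholipase Plcg2 at 0.03 ± 0.10. Tyrobp, the adaptor that Trem2 needs for signalling, averaged 8.76 ± 0.282 CPM in cKO and 8.67 ± 0.999 CPM in WT. With each animal left out in turn, 5 to 8 of the 9 estimates were above 0, and 6 without cKO 1.

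Of 6 transcription factors of the myeloid lineage, 4 had estimates above 0, with a median of 0.07, and none passed. Cebpa, a factor of myeloid differentiation, averaged 10.9 ± 1.33 CPM in cKO and 9.23 ± 0.693 CPM in WT (log2 fold change 0.25 ± 0.08, SE, unadjusted p = 0.00982, adjusted p = 0.372). Irf8 was at 0.11 ± 0.06, Irf5 at 0.10 ± 0.09 (0.04 without cKO 1), Runx1 at -0.11 ± 0.13 and Spi1, which encodes PU.1, at 0.05 ± 0.08 (adjusted p = 0.901).

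The rest of the complement system leaned above 0 with 10 of 12 genes and a median of 0.14, and none passed. C1s1, a protease of the C1 complex, averaged 2.15 ± 0.308 CPM in cKO and 1.58 ± 0.475 CPM in WT (log2 fold change 0.44 ± 0.18, SE, adjusted p = 0.463). C2, the protein cleaved by that complex, averaged 2.14 ± 0.644 CPM in cKO and 1.62 ± 0.312 CPM in WT (0.40 ± 0.19, adjusted p = 0.528). Serping1, the C1 inhibitor, was at 0.22 ± 0.19, and Itgam, a chain of the receptor CR3 on microglia, at -0.10 ± 0.05 (adjusted p = 0.578). Without cKO 4, WT 2 and WT 3, 7 of the 12 were above 0, the median was 0.02, Serping1 was at 0.04 and C2 at 0.23. With cKO 1 left out as well, a set chosen after the data were seen, 4 of the 12 were above 0. In that set the median was -0.03, Serping1 was at -0.13 and C2 at 0.00.

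No gene of the list induced in disease-associated microglia passed. Of 14 tested, 10 had estimates above 0, with a median of 0.09, and Cst7, a marker of that state, was below the filter. Lyz2, lysozyme, averaged 9.30 ± 1.10 CPM in cKO and 6.85 ± 1.83 CPM in WT (log2 fold change 0.44 ± 0.16, SE, adjusted p = 0.421), and 0.26 without cKO 4, WT 2 and WT 3. Lpl, lipoprotein lipase, averaged 33.5 ± 3.16 CPM in cKO and 42.6 ± 11.4 CPM in WT (-0.35 ± 0.14, adjusted p = 0.463). Spp1, osteopontin, was at 0.38 ± 0.29, at 0.23 without cKO 1 and at 0.26 without cKO 4, WT 2 and WT 3. It was at 0.06 without cKO 1, cKO 4, WT 2 and WT 3. The protease Ctsb was at 0.06 ± 0.03. Of 8 inflammatory cytokine and response genes, 6 (Il1b, Tnf, Il6, Ccl2, Ccl3 and Ccl4) were below the filter, and neither Nfkbia (0.19 ± 0.12) nor Il1a (-0.48 ± 0.32) passed.

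Among 21 pan-myeloid genes 1 passed the threshold. Il10ra, which encodes the ligand-binding subunit of the receptor for interleukin 10, lay between 4.58 and 4.75 CPM in cKO animals and between 3.48 and 3.77 CPM in WT animals. Every cKO animal was above every WT animal. Its mean was 4.70 ± 0.0640 CPM in cKO and 3.57 ± 0.105 CPM in WT, a log2 fold change of 0.39 ± 0.05 (SE, adjusted p = 0.0409, edgeR). Counts were 211 to 243 in cKO and 146 to 183 in WT, and both SDs lay below counting noise at such counts. These SDs therefore understate the spread to be expected between animals, and the lack of overlap is to be read with that limit. The estimate was 0.39 without cKO 1, and the call held in 6 of 22 alternatives, with adjusted p from 0.000437 to 0.483. Cd37, a tetraspanin of leukocytes, was the other of the 21 without overlap, at 3.03 to 3.34 CPM in cKO and 3.42 to 3.83 CPM in WT (-0.19 ± 0.06, SE, unadjusted p = 0.00981, adjusted p = 0.372). Over the 21, 13 estimates were above 0, with a median of 0.04, and Cd14 (0.34 ± 0.16) and Tlr2 (0.38 ± 0.23) did not pass.

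Border macrophages, which line the meninges, vessels and choroid plexus and share several of the 9 genes, were read from markers of their own. All 11 tested had estimates above 0, with a median of 0.23, and none passed. Cd163, a haemoglobin scavenger receptor, averaged 1.76 ± 0.358 CPM in cKO and 1.35 ± 0.305 CPM in WT (log2 fold change 0.38 ± 0.18, SE, adjusted p = 0.523). Cbr2 was at 0.48 ± 0.24 (adjusted p = 0.560), Mrc1 at 0.27 ± 0.16 (adjusted p = 0.619) and the scavenger receptor Stab1 at 0.18 ± 0.09 (adjusted p = 0.528). Without cKO 1, Mrc1 was at 0.13. Without cKO 4, WT 2 and WT 3, Mrc1 was at 0.16 and Stab1 at 0.07. With cKO 1 left out as well, Mrc1 was at -0.0029 and Stab1 at 0.06. Their summed level was 30.7 to 40.3 CPM in cKO, median 36.3, and 24.9 to 37.4 CPM in WT, median 30.6. The median of the 11 was 0.13 without cKO 1, with 9 above 0. It was 0.16 without cKO 4, WT 2 and WT 3, with 9 above 0. With cKO 1 left out as well, a set chosen after the data were seen, it was 0.00, with 6 above 0.

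Markers of other tissues and of blood were read beside these lists. The 7 smooth muscle genes, which mark arterial walls, had a median log2 fold change of 0.84, with all 7 at an unadjusted p under 0.05 (edgeR) and none past the threshold, and a summed level of 89.7 to 140 CPM in cKO and 49.9 to 86.6 CPM in WT. Genes of blood monocytes, neutrophils and lymphocytes were mostly below the filter, and the 5 of 11 tested summed to 1.79 to 3.24 CPM in cKO and 1.47 to 2.24 CPM in WT. Haemoglobin and other red cell genes summed to 330 to 506 CPM in cKO and 176 to 696 CPM in WT. Their part in the estimates for border macrophage, complement and Lyz2 genes was not tested. Of genes of the main resident cell types, 2 of 7 neuronal, 5 of 8 astrocyte, 0 of 6 oligodendrocyte and 7 of 8 endothelial genes had estimates above 0, and none passed. Without cKO 4, WT 2 and WT 3, these numbers were 4 neuronal, 5 astrocyte, 0 oligodendrocyte and 4 endothelial genes. Proliferation genes, 6 in all, were split evenly between estimates above and below 0.

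**Figure D5:**
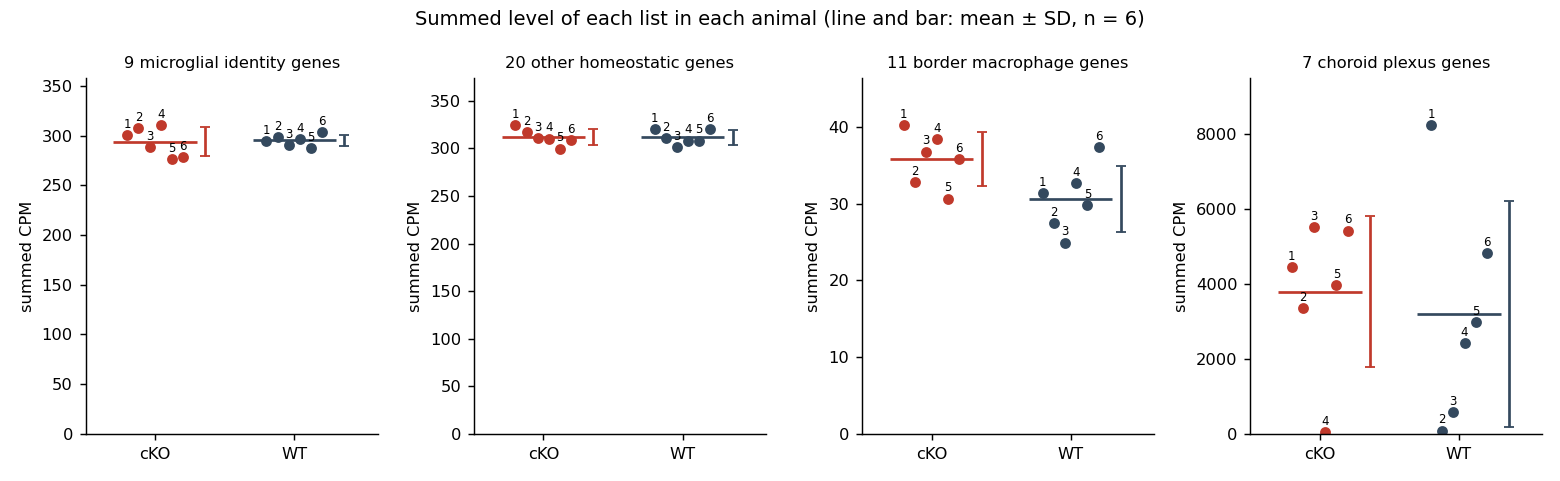
Summed level (CPM, axes from 0) of the 9 members, 20 other homeostatic genes, 11 border macrophage genes and 7 choroid plexus genes in each animal, cKO left and WT right, with mean ± SD (n = 6). Both microglial sums vary little beside the border macrophage and choroid plexus sums, which vary widely within each genotype.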

How the data were processed

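PolyA RNA of bulk hippocampus was sequenced from 6 cKO and 6 WT mice, after Trizol-chloroform extraction and preparation with the NEB Next Ultra kit, per the labels' protocols. The authors deposited estimated counts (expected counts) per gene symbol with no scaling. Salmon 1.3.0 and the build GRCm38 stand in the submitters' processing notes. No source used here names the transcript annotation, the summing to genes or the strand setting. Counts were rounded to whole numbers, and all 12 columns were used.

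The test of genotype was edgeR's quasi-likelihood test (edgeR 4.0.16, R 4.3.3) after TMM scaling and the filterByExpr filter (count minimum 10, total 15), with no other term. Benjamini-Hochberg adjustment ran over all 19325 genes, with a threshold of 0.05. Levels are TMM-scaled CPM, and log2 CPM carries a prior count of 2. Counting variation is that of a Poisson count, as a floor. Correlations were tested with 100000 permutations for 12 animals and exactly for 6 or 9, two-sided, adjusted over 36 pairs. Non-overlap means that every animal of 1 genotype lies above every animal of the other. The steps were tested on simulated data. Coordinates and UTRs are from the GENCODE annotation of GRCm38, promoters and miRNAs from RefSeq (GRCm38.p6).

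P-values measure the spread between animals. Libraries of the same genotype always differed by more than counting noise (lowest chi-square per degree of freedom 8.36). Alternatives were other scalings and filters, DESeq2 1.42.0, limma-voom (limma 3.58.1), the animal number as a block, each animal left out, and sets of libraries left out. Some single genes are not reported here and were left out of the lists. The members and lists were chosen with earlier results of these data known. Named genes were the 9 members, Il10ra, B830012L14Rik, up to 4 genes with the smallest p in each further microglial, myeloid or ligand list, and the 12 genes most like the members; lists of other cell types are given by sums or counts. Tyrobp, Spi1, Il34, Pf4, Ccr2, Cd3e, Nfkbia and Il1a are named for their role, and Med12l, Hmgxb3 and Gm33858 for their overlap.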

Additional observations from a re-analysis of the deposited data

Results flagged for a closer look

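Among the 22 groups of 6 animals examined for the 9 members, Il10ra and B830012L14Rik, 3 had an animal set far apart from the rest. Chance would give about 1.1 in 22 groups, but only for genes named without regard to their values. B830012L14Rik was named because cKO 1 stood with WT there, so its flag follows from that choice. Of the 9 members only P2ry12 was flagged. P2ry12 in WT 6 was 22.3 CPM, below the other 5 WT animals. Il10ra in WT 5 was 3.77 CPM, above the other 5 WT animals and below all cKO animals. B830012L14Rik in cKO 1 was 0.788 CPM, inside the WT range of 0.310 to 0.865 CPM.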

How the results depend on the processing

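None of the 9 members passed the threshold under any of 22 alternatives to the comparison of genotypes. The number of genes past the threshold, 2 in the main comparison, was 1 without a low-count filter, 1 with a filter of 1 CPM, 83 with DESeq2, 0 with limma-voom (which gave 1847 unadjusted p under 0.05), 0 with the replicate block, 0 without WT 2, WT 3 and cKO 4, 5 when cKO 1 was left out as well, and 0 to 6 with each animal left out in turn (6 without cKO 1). The median log2 fold change of the members was -0.05 to -0.01 with each animal left out, and the median r was 0.11 to 0.24.

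By Pearson's r over 12 animals, 2 member pairs passed the threshold. The number was 1 by Spearman's rho, 0 without WT 2, WT 3 and cKO 4, 0 within cKO alone and 0 within WT alone. With each animal left out it was 0 to 3 (0 without cKO 4). With the replicate block 4 pairs passed, but a block of 2 animals leaves their values as mirror images. The 12 values are then not independent, so no conclusion is drawn from that count. Animal numbers do not pair the animals: same-numbered animals correlated by -0.27 to 0.25, only 2 of 6 above 0.1, and 1 of 6 correlated best with its own number.

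With each animal left out, the log2 fold change of C1qa ran from -0.029 (without cKO 2) to 0.054, and was also below 0 without cKO 4 (-0.014), WT 3 (-0.0077) and WT 4 (-0.00096); it was -0.043 without WT 2, WT 3 and cKO 4, and -0.022 without these and cKO 1. That of Plcg2 ran from -0.029 (without WT 5) to 0.073, with -0.024 without cKO 1, and that of Cd200 from -0.012 (without cKO 4) to 0.077, with -0.00030 without cKO 5. Without WT 2, WT 3, cKO 1 and cKO 4, Serping1 turned to -0.13 and Mrc1 to -0.0029. The cause was not tested. At the spread of these animals, 95% intervals of the members left room for differences of up to 21.4%, for Aif1.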
